A study of Homo sapiens with 8 samples.

Results

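The high mobility group genes encode small, abundant chromatin proteins, and 7 of them were examined here as RNAs bound by a pair of RNA-binding proteins: HMGB1, HMGB2, HMGB3, HMGA1, HMGA2, HMGN1 and HMGN2. Their peaks were taken by gene name from the peak lists of 4 immunoprecipitation (IP) libraries, which gave 388 peaks of 1843422 and 7 genes of 19767 with a peak. The members were chosen by family and by the gene names on these peaks, with peak values (log2 and −log10 p) already known, so the presence of a peak is no finding and peak values are given as a description. Binding was measured by eCLIP, an enhanced crosslinking and immunoprecipitation method read out by sequencing, in A172, an established human glioma line, with no treatment or genotype that differed between groups. One pair of IP libraries was made with an antibody to PTBP1 (PTB in the labels) and one pair with an antibody to IGF2BP2 (IMP2 in the labels). Each IP had its own input library. These 4 libraries enter only through the deposited ratios. All cells were grown with 4-thiouridine (500 µM, 3 h), a photoreactive nucleoside, before being crosslinked by 365 nm light, given as 2 doses of 400 mJ/cm2. Membrane pieces of about 55 to 130 kDa (PTBP1) and 65 to 140 kDa (IGF2BP2) were used. Separate cultures are not mentioned for the replicates, so a p-value here reflects the spread among libraries and may be technical.

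HMGB proteins bend DNA through HMG boxes, and HMGB1 is also released from cells and acts as an alarm signal. HMGA proteins bind the minor groove of AT-rich DNA through AT-hooks, and HMGA2 is a classic target of the let-7 microRNAs through its long 3′ UTR. HMGN proteins bind nucleosomes and compete with linker histone for chromatin. PTBP1 binds pyrimidine-rich RNA and regulates splicing, among other steps, and IGF2BP2 binds mature mRNAs, often in their 3′ UTRs.

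The lists held 600615 and 538802 peaks for PTBP1 replicates 1 and 2, and 362700 and 341305 for IGF2BP2. They give a log2 of IP over input for each peak, which was placed on one scale per library (the common scale): the log2 ratio of IP to input reads plus a constant. That constant was -0.30 and -0.08 for PTBP1 and 1.74 and 1.90 for IGF2BP2, so equal reads do not give equal log2 values for the 2 proteins. A peak is called enriched where this log2 and the −log10 p are both at least 3. Peaks were annotated in all 4 lists for VIM and EGFR, which are expressed in glial cells and gliomas. GFAP, the astrocyte filament protein, held 2, 3, 2 and 0 peaks, and the glial genes SOX2 and S100B held none. A peak list does not measure RNA levels, and RBFOX3, a neuronal gene, held 59 to 183 peaks per list.

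Sites enriched in both replicates of a protein lay on different members for the 2 proteins. For PTBP1 they were in the 3′ UTR of HMGB1 and in the coding sequence of HMGB1, HMGB2, HMGB3 and HMGN1. For IGF2BP2 they were along the 3′ UTR of HMGA1, the only member with any. Of all genes with a peak of the protein, 14.5% held such a site for PTBP1 and 22.0% for IGF2BP2. The share of all genes with such sites of both proteins was not computed, so the split between members is a description. By log2 alone, the highest IGF2BP2 member peaks of replicate 1 were in an HMGA1 intron (4.91, against at most 4.44 in the 3′ UTR). In replicate 2 the highest was in the HMGA1 3′ UTR (5.30). Members' enriched peaks numbered 11 of 119 and 13 of 122 for PTBP1, and 12 of 80 and 14 of 67 for IGF2BP2. These are 9.24% (95% Wilson interval 5.24 to 15.8%) and 10.7% (6.33 to 17.4%) for PTBP1, against 2.91% and 2.81% of all peaks in those lists. For IGF2BP2 they are 15% (8.79 to 24.4%) and 20.9% (12.9 to 32.1%), against 9.18% and 9.35%. HMGA1 alone held 6 of these 12 and 9 of these 14 enriched IGF2BP2 peaks, and HMGB2, HMGA2 and HMGN1 held none. The intervals cover counting error only and treat peaks as independent, and adjacent peaks of a gene can share reads. Of the 11 and 13 enriched PTBP1 peaks, 4 in each replicate adjoin in the HMGB1 3′ UTR. Since the members were chosen with peak values known, the intervals are a description and no test against all peaks. Among PTBP1 coding-sequence peaks of the members, 7 of 18 and 9 of 22 were enriched, against 5.92 and 5.53% of all coding-sequence peaks in those lists. Of the intronic ones, 0 of 86 and 0 of 88 were, where all intron peaks had a low share too, of 2.42 and 2.37%. Among IGF2BP2 3′ UTR peaks, 5 of 13 and 9 of 15 were enriched, against 20.9% of all 3′ UTR peaks in both lists. HMGA1 held 4 of these 5 and 8 of these 9. Of the members' intronic IGF2BP2 peaks, 7 of 52 and 4 of 41 were enriched, against 8.67 and 8.81%. At a stricter bar (log2 4, −log10 p 5), the members' share stayed above that of all peaks in PTBP1, at 5.04 and 6.56% against 0.84 and 0.80%. For IGF2BP2 it was 1.25% against 1.62% in replicate 1, below the share of all peaks, and 4.48% against 2.27% in replicate 2. With the deposited log2 and −log10 p the PTBP1 contrast was smaller, at 10.9 and 12.3% of member peaks against 5.90 and 5.93% of all peaks.

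**Figure D1:**
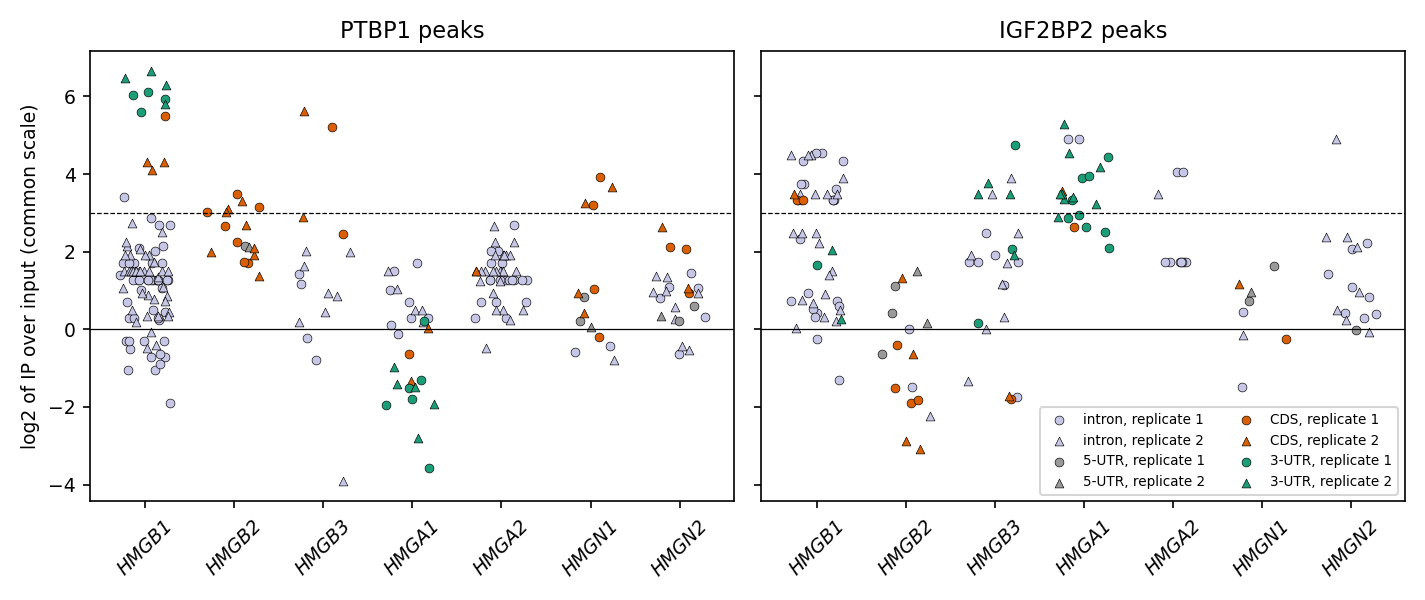
Log2 of IP over input (common scale) of every member peak, by gene, in PTBP1 (left) and IGF2BP2 (right) libraries. Each point is 1 peak, colour gives the annotated region, circles are replicate 1 and triangles replicate 2, and the dashed line marks a log2 of 3. Sideways spread within a gene carries no meaning. The HMGB1 3′ UTR peaks of PTBP1 lie between 5.59 and 6.65, and the HMGA1 3′ UTR peaks of IGF2BP2 between 2.10 and 5.30.

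Regions with a peak in both replicates of a protein, joined by at least 1 nt of overlap on the same strand, are called reproducible below. The members held 45 such PTBP1 regions, of which 8 were enriched in both replicates, against 2.30% of all reproducible PTBP1 regions. These 8 lay in HMGB1 (3), HMGB2 (2), HMGB3 (1) and HMGN1 (2). Regions that abut without overlap were counted apart, among them 2 of HMGB1, in its 3′ UTR, and the 2 of HMGB2. The members held 37 IGF2BP2 regions, of which 4 were enriched in both replicates, all in HMGA1, against 5.94% of all such IGF2BP2 regions. An enriched region was thus present in 4 of 7 members for PTBP1, where 14.5% of genes with a peak had one. It was present in 1 of 7 for IGF2BP2, where 22.0% had one. Of the 45 PTBP1 regions, 35.6% overlapped an IGF2BP2 region, and 35.1% of the 37 IGF2BP2 regions overlapped a PTBP1 region. Over all reproducible regions of the lists these shares were 19.9% and 39.6%.

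HMGB1 (chr13, minus strand in hg38) had the strongest PTBP1 signal of the family. In its 3′ UTR, 4 adjoining PTBP1 peaks per replicate filled chr13:30461360-30461500, and all 8 were at the −log10 p limit of 400. Their log2 values were 5.59, 6.12, 6.05 and 5.93 in replicate 1 and 5.81, 6.47, 6.65 and 6.29 in replicate 2. Among the 1759 peaks at that limit in replicate 2, the 5 nt peak of HMGB1 at 6.65 had the highest log2. In replicate 1, the highest HMGB1 peak was rank 15 of 2296. IGF2BP2 also had peaks inside this stretch, of 37 IP reads to 39 input reads in replicate 1 (log2 1.66) and 35 to 32 in replicate 2 (2.03). A further replicate 2 peak there had 8 to 25 reads (0.26). No IGF2BP2 peak in the stretch was enriched.

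The HMGB1 coding sequence carried one PTBP1 region found in both replicates, chr13:30463207-30463278, with 56 IP reads to 1 input read and 54 to 3 (log2 5.50 and 4.09). In replicate 2, a pair of adjoining coding peaks of 42 to 2 reads (chr13:30462642-30462712, log2 4.32 each) had no counterpart in replicate 1. IGF2BP2 had coding peaks of 3 to 1 reads only. Most HMGB1 peaks were intronic, 47 of 52 and 40 of 47 for PTBP1 and 22 of 25 and 21 of 24 for IGF2BP2. Median reads per HMGB1 peak were 4.0 and 5.5 for PTBP1 and 4.0 and 3.0 for IGF2BP2, where the fewest found in any peak was 3. Of its PTBP1 peaks, 32.7% and 31.9% overlapped a peak of the other replicate, against 55.6% and 61.5% over the whole lists. The enriched IGF2BP2 intron peaks of HMGB1, 5 and 3 per replicate, rested on 6 to 11 IP reads, and none of their regions was enriched in both replicates.

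Of the 13 reproducible PTBP1 regions of HMGB1, 10 were intronic, and their log2 values stayed under those of the exonic ones. The best supported intron region, chr13:30542593-30542790, had 42 to 8 and 31 to 7 reads (log2 2.09 and 2.07). A second, chr13:30465818-30465844, was deeper in replicate 1 and weaker, with 59 to 18 and 36 to 16 reads (1.41 and 1.09). One intron region passed a log2 of 3 in replicate 1, chr13:30542241-30542316, with 13 to 1 and 14 to 3 reads (3.40 and 2.15), and its −log10 p was 2.29 and 1.88. IGF2BP2 had 7 reproducible intron regions in HMGB1. The highest by its lower replicate, at chr13:30528513-30528533, consisted of a pair of abutting regions of 4 to 1 and 6 to 1 reads (3.74 and 4.49).

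HMGB2 (chr4, minus strand), a proliferation-linked HMG-box protein, was bound by PTBP1 in its coding sequence. All 7 and 8 PTBP1 coding peaks had a log2 above 0, and 4 per replicate were at the limit of 400. The highest lay at the 3′ end of this cluster, chr4:173332080-173332141, with log2 values of 3.49 and 3.15 in replicate 1 and 3.31 and 3.09 in replicate 2. Next to it, log2 values fell just inside the bar at 3.02 in both replicates, and then just outside it at 2.65 and 2.69. Neighbouring peaks were deep but modest, with 900 IP reads to 223 input reads in replicate 1 (log2 1.71) and 651 to 164 in replicate 2 (1.91). IGF2BP2 coding peaks of HMGB2 were at -1.89 to -0.40 in replicate 1 and at -3.08 to 1.32 in replicate 2, and 4 of 4 and 3 of 4 were below 0. The one peak above 0 had 8 IP reads to 12 input reads. In the 5′ UTR both proteins had a peak with log2 above 0, at 2.14 and 2.11 for PTBP1 (chr4:173334319-173334345) and at 1.11 and 1.49 for IGF2BP2.

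HMGB3 (chrX, plus strand), the third HMGB paralog, had a coding region in which nearly all PTBP1 reads came from the IP. It spanned chrX:150986078-150986186 and held 46 to 1 and 52 to 1 reads (log2 5.22 and 5.62). IGF2BP2 had no peak there. A second coding region, chrX:150987812-150987912, was far deeper, with 879 to 130 and 647 to 83 reads, and had a lower log2 of 2.45 and 2.89. In that region the IGF2BP2 peaks were at -1.81 and -1.71. The HMGB3 3′ UTR had no PTBP1 peak and 3 and 4 IGF2BP2 peaks, all above 0. Their depth was 3 to 11 IP reads, and none of their regions was enriched in both replicates. The most enriched pair lay at chrX:150989549-150989588, with 8 to 1 and 3 to 1 reads (log2 4.74 and 3.49).

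**Figure D2:**
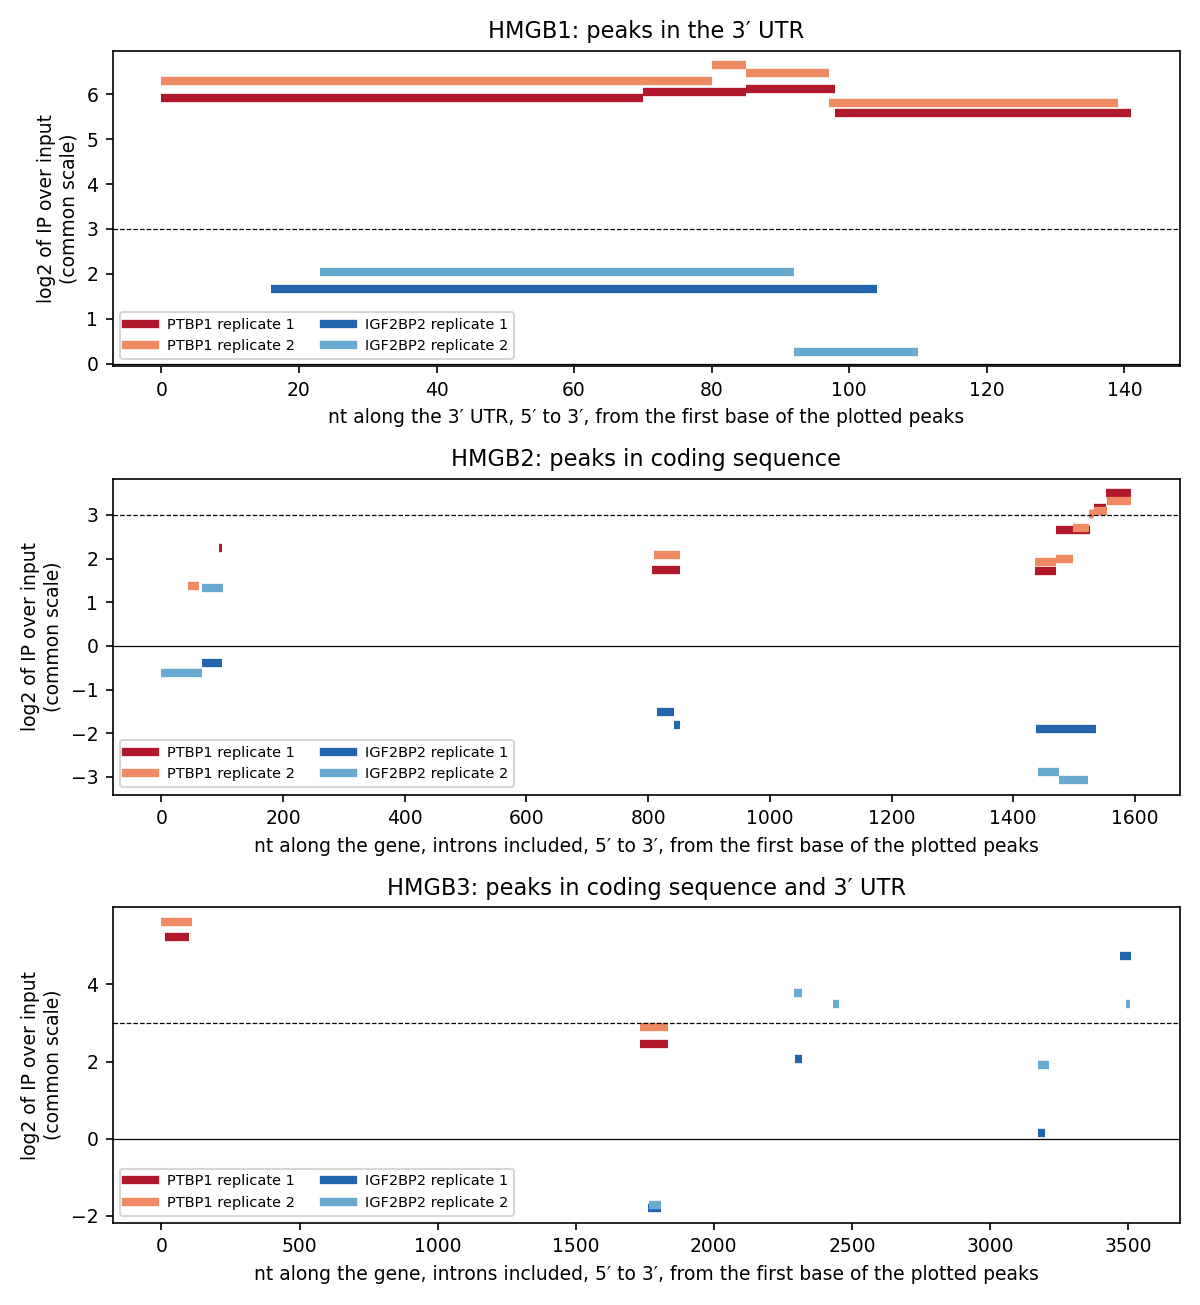
Peaks of the 3 HMGB genes along the transcript direction: 3′ UTR peaks of HMGB1 (top), coding-sequence peaks of HMGB2 (middle), and coding-sequence and 3′ UTR peaks of HMGB3 (bottom). Each bar is 1 peak, drawn at its log2 of IP over input (common scale) against the distance in nt from the first plotted base, and the dashed line marks 3. PTBP1 bars lie above IGF2BP2 bars in HMGB1, and HMGB3 coding sequence holds PTBP1 bars at 2.45 to 5.62 and IGF2BP2 bars at -1.81 and -1.71.

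HMGA1 (chr6, plus strand), an AT-hook protein, was the member with the reverse pattern. Each IGF2BP2 library had 9 peaks in its 3′ UTR, spread over chr6:34244983-34246053, and all 18 had a log2 above 0. The log2 ranged from 2.10 to 4.44 with a median of 2.94 in replicate 1, and from 2.89 to 5.30 with a median of 3.49 in replicate 2. PTBP1 had 6 and 5 peaks in the same 3′ UTR, at -3.58 to 0.21 with a median of -1.65, and at -2.80 to -0.98 with a median of -1.49. The 2 proteins' ranges did not overlap. The deepest IGF2BP2 region, chr6:34245745-34245829, had 176 to 81 and 170 to 86 reads and log2 values of 2.86 and 2.89, just under the bar. The PTBP1 peaks inside it were the lowest of HMGA1, at -3.58 and -2.80.

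The 4 HMGA1 regions enriched in both IGF2BP2 replicates were the following. At chr6:34244983-34245076 the best peaks had 78 to 12 and 74 to 12 reads (log2 4.44 and 4.53). At chr6:34245637-34245696 there were 51 to 11 and 34 to 7 reads (3.95 and 4.18). At chr6:34245163-34245217 there were 54 to 12 and 34 to 12 reads (3.91 and 3.41), and at chr6:34245349-34245380 there were 24 to 8 in both replicates (3.32 and 3.49). The highest value, 5.30 from 21 to 2 reads, was a replicate 2 peak with no partner in replicate 1. IGF2BP2 also had a peak at the end of the HMGA1 coding sequence, chr6:34244840-34244861, of 13 to 7 and 19 to 6 reads (2.63 and 3.57). PTBP1 coding peaks of HMGA1 were at -0.62 in replicate 1 and at 0.04 and -1.34 in replicate 2. A pair of adjoining intron peaks of IGF2BP2 with 9 to 1 reads (4.91) was found in replicate 1 only.

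**Figure D3:**
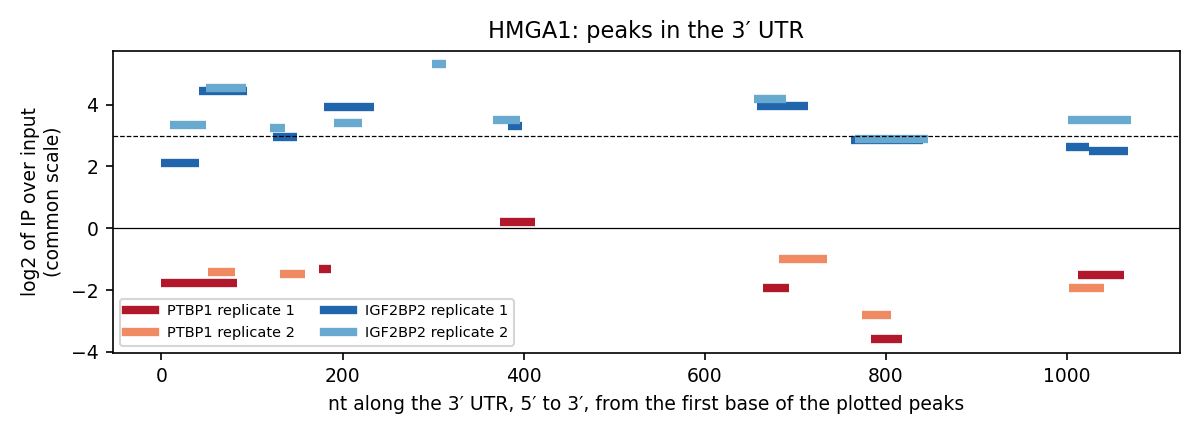
Peaks in the HMGA1 3′ UTR, drawn at their log2 of IP over input (common scale) against the distance in nt from the first base of the plotted peaks. Each bar is 1 peak of 1 library, and the dashed line marks 3. All 18 IGF2BP2 bars lie between 2.10 and 5.30, and the 11 PTBP1 bars lie between -3.58 and 0.21.

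Reproducible intron regions of HMGA1 and HMGB3 had modest log2 values. In HMGA1, PTBP1 had 2 reproducible intron regions, and the higher one, chr6:34237792-34237963, had 15 to 6 and 13 to 6 reads (log2 1.02 and 1.04). In HMGB3, PTBP1 had 4, with 22 to 8 and 17 to 4 reads in the highest, chrX:150984733-150984768 (1.16 and 2.01). IGF2BP2 had 4 in HMGB3, among them chrX:150984081-150984143 with 13 to 13 and 13 to 15 reads (1.74 and 1.7).

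HMGA2 (chr12), the oncofetal paralog of HMGA1, had no 3′ UTR peak in any list. It held 19 and 26 PTBP1 peaks and 9 and 1 IGF2BP2 peaks, intronic except for 1 coding peak of 3 reads in PTBP1 replicate 2. None was enriched on the common scale. Median depth was 3 and 4 IP reads for PTBP1 and 3 in both IGF2BP2 libraries. Only 3 PTBP1 regions were reproducible and no IGF2BP2 region was. The deepest, chr12:65834503-65834562, had 32 to 4 and 20 to 3 reads (log2 2.70 and 2.66). Its deposited log2 was 3.51 and 3.47 and its deposited −log10 p 8.40 and 5.84, above the bar of 3 in both replicates. Deposited log2 values on chromosome 12 stood 0.81 above the common scale in both PTBP1 libraries, so the call for this region depends on the scale. Peaks were taken by gene name on either strand, and the coding peak was on the plus strand. The reproducible region at chr12:65876902-65876940 was on the minus strand. So were 7 of 19 and 9 of 26 PTBP1 peaks, and 3 of 9 and 0 of 1 IGF2BP2 peaks. Many HMGA2 peaks overlapped a peak of the same list on the opposite strand, 7 of 19 and 16 of 26 for PTBP1 and 6 of 9 and 0 of 1 for IGF2BP2. Over all peaks this share was 10.7 to 11.6%, and the other 6 members had none. Without such peaks in the lists, an alternative added after seeing the data, the HMGA2 difference of density described below was 1.64 (limma adjusted p = 0.0660).

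HMGN1 (chr21, minus strand), a nucleosome-binding protein, had PTBP1 coding peaks at the limit of 400 in both replicates. They lay at chr21:39343121-39343160 (log2 3.92 and 3.66) and at chr21:39345146-39345268 (3.21 and 3.25). The deposited log2 on chromosome 21 stood 2.66 and 2.63 above the common scale in the PTBP1 libraries, and the deposited −log10 p of these peaks was made on that higher scale. The IGF2BP2 peaks in the second region had 4 to 16 and 3 to 5 reads (log2 -0.26 and 1.17). Both proteins had peaks in the HMGN1 5′ UTR, weak ones, with log2 0.83 and 0.06 for PTBP1 (chr21:39349026-39349068) and 1.64 and 0.96 for IGF2BP2 (chr21:39348995-39349083). A stretch of this shared site is shown because both proteins' peaks meet in it. It comes from RefSeq (GRCh38.p14), is written 5′ to 3′ on the transcribed strand, and lies 10 to 38 nt after the start site. Capitals mark bases that are also inside a peak of both PTBP1 libraries.
HMGN1 chr21:39349050-39349078: cccaccgcccccgctgtgGGTCTCAGCAG
The other stretch shown is from an HMGB3 region with a peak in both IGF2BP2 replicates, of 5 to 5 and 6 to 2 reads (log2 1.74 and 3.49). That region was not enriched in both replicates. The stretch has no base inside a peak of both PTBP1 libraries. It lies at -96 to -67 nt from a RefSeq start site, is G- and C-rich, at 96.7% against 75.9% for the HMGN1 stretch, and has no T. Bases were at hand only inside RefSeq promoter windows, so these 2 stretches cannot show which sequences either protein prefers.
HMGB3 chrX:150984295-150984324: cccgggcccccgagcccccgggcggcccgg

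HMGN2 (chr1, plus strand), the close relative of HMGN1, had no region enriched in both replicates of either protein. Its strongest PTBP1 region was in coding sequence, chr1:26474572-26474638, with 52 to 10 and 46 to 7 reads (log2 2.08 and 2.64). Its IGF2BP2 peaks were intronic, apart from 1 in the 5′ UTR. The strongest reproducible one, chr1:26472786-26472817, had 14 to 10 reads in both replicates (2.22 and 2.39). A replicate 2 intron peak of 8 to 1 reads (4.90) had no partner. HMGN2 peaks were found again in the other replicate in 81.8% and 83.3% of cases for PTBP1, more than for HMGB1 and HMGA2.

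**Figure D4:**
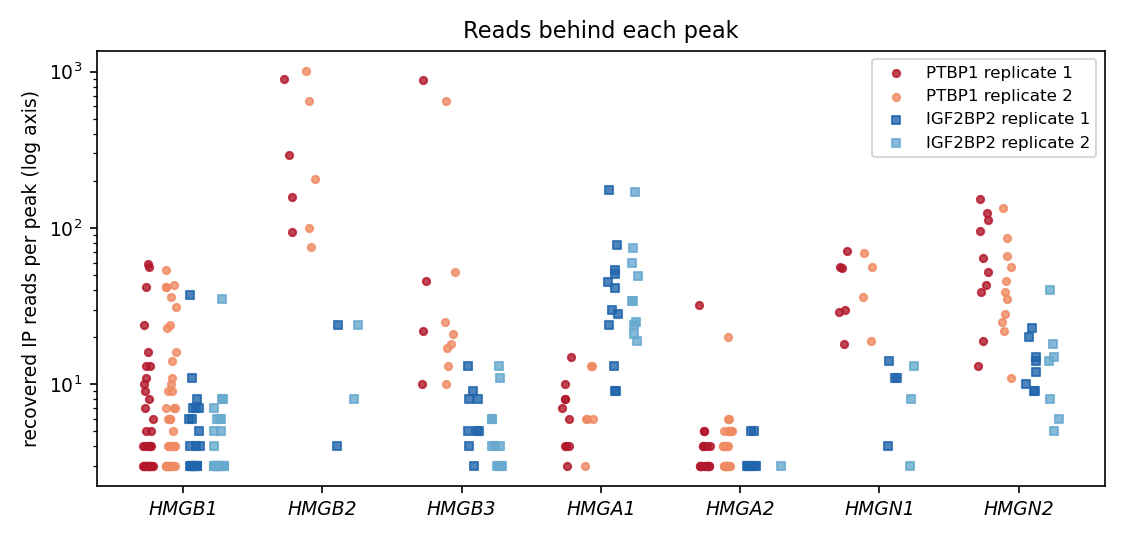
IP reads behind each member peak on a log axis, by gene and library, for peaks whose reads could be recovered. Peaks at the −log10 p limit of 400, and peaks with a −log10 p of 0, are not shown. HMGA2 and most HMGB1 points lie near the lowest value of 3, and HMGB2 and HMGB3 reach 1016 and 879 reads in PTBP1 libraries.

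Peaks per length of gene set the members in an order that was alike for the 2 proteins at both ends. On the scale of peaks per kb of the RefSeq gene, HMGB2 was the most densely covered, with 2.85 ± 0.24 (SD, n = 2) in the PTBP1 lists. In the IGF2BP2 lists it had 2.68 ± 0.47 (SD, n = 2). HMGN2 followed at 2.74 ± 0.17 (SD, n = 2) and 2.02 ± 0.17 (SD, n = 2), and its PTBP1 value differed from that of HMGB2 by less than the SD. In the middle, for PTBP1, came HMGA1 at 1.44 ± 0.23 (SD, n = 2), HMGN1 at 1.03 ± 0.21 (SD, n = 2) and HMGB3 at 0.78 ± 0.28 (SD, n = 2), where HMGN1 and HMGB3 overlapped. For IGF2BP2 it was HMGB3 at 1.22 ± 0.21 (SD, n = 2) and HMGA1 at 1.18 ± 0.15 (SD, n = 2), which overlapped, and HMGN1 at 0.59 ± 0.21 (SD, n = 2). HMGB1 and HMGA2, whose genes span 161 and 142 kb, were lowest, at 0.31 ± 0.02 and 0.16 ± 0.03 (SD, n = 2) for PTBP1, and at 0.15 ± 0.004 and 0.04 ± 0.04 (SD, n = 2) for IGF2BP2.

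The gene's share of its own list, peaks per 10000, was then compared between the proteins. HMGB1 had 0.87 and 0.87 for PTBP1 and 0.69 and 0.70 for IGF2BP2, so PTBP1 was higher in both replicates. HMGB3 had 0.10 and 0.19 for PTBP1 and 0.30 and 0.41 for IGF2BP2, so IGF2BP2 was higher in both replicates. HMGA2 had 0.32 and 0.48 for PTBP1 and 0.25 and 0.03 for IGF2BP2, where the replicates of IGF2BP2 stood far apart. The libraries of the proteins did not overlap for these genes, nor for HMGB2, HMGA1 and HMGN2. The share of all genes whose libraries separate in this way was not computed. With limma over 15145 genes and Benjamini-Hochberg adjustment, none of the 7 members passed 0.05, whereas 25% of all genes did (12.7% higher in PTBP1 and 12.3% higher in IGF2BP2). At an unadjusted limma p under 0.05, 2 of 7 members passed, HMGB3 and HMGA2, against 40% of all genes. The log2 difference of density, PTBP1 minus IGF2BP2, was -1.34 ± 0.41 (SE; limma adjusted p = 0.0529) for HMGB3 and 1.90 ± 0.78 (SE; limma adjusted p = 0.116) for HMGA2. For HMGB1 it was 0.31 ± 0.16 (SE; limma adjusted p = 0.204). HMGB2 (-0.60), HMGA1 (-0.41), HMGN2 (-0.28) and HMGN1 (0.07) had adjusted p of 0.267 to 0.928. The median over the members was -0.28, against -0.01 over all genes tested.

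HMGA2 rested on single libraries. Without IGF2BP2 replicate 1 its difference was 3.18 (limma adjusted p = 6.21e-07), and without IGF2BP2 replicate 2 it was 0.61. With nucleotides covered in place of peaks, where 6574 of 15145 genes passed, 3 of 7 members did, all higher in IGF2BP2: HMGB2 at -1.89 (limma adjusted p = 0.00340), HMGB3 at -1.63 (0.00527) and HMGA1 at -1.15 (0.00754). Among only the 25% of peaks with the best −log10 p in each list, HMGB2 had 8 and 9 peaks for PTBP1 and 0 and 1 for IGF2BP2. HMGA1 had 1 and 1 for PTBP1 and 12 and 10 for IGF2BP2. These counts restate the peak values given above and are a description, with no test.

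**Figure D5:**
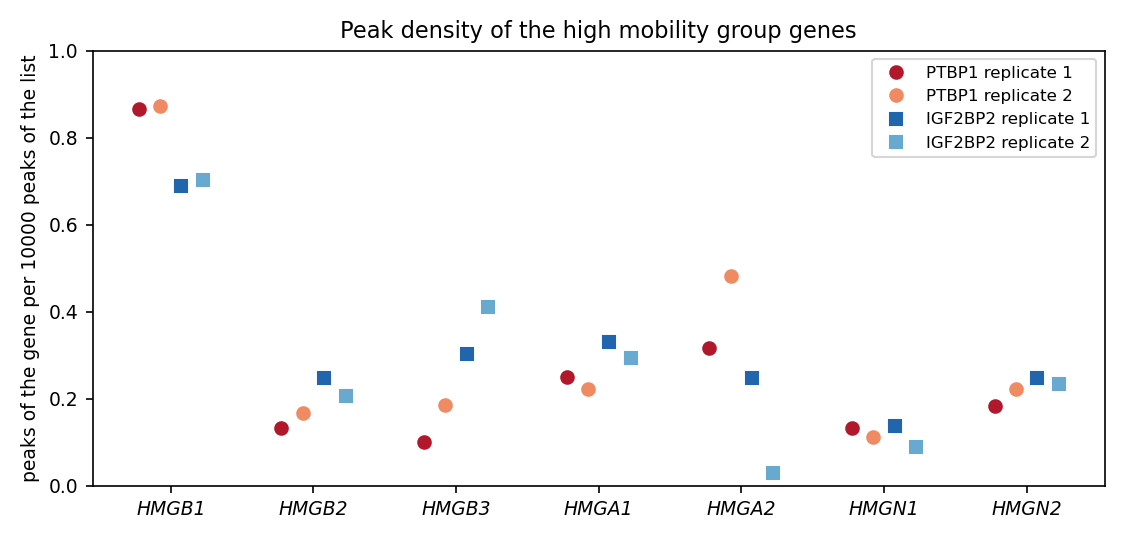
Peaks of each member per 10000 peaks of its list, by library. Circles are PTBP1 and squares IGF2BP2, 1 point per library. The HMGB3 values are 0.10 and 0.19 for PTBP1 and 0.30 and 0.41 for IGF2BP2, and the IGF2BP2 values of HMGA2 are 0.25 and 0.03.

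By region, the 3′ UTR held 7.89% ± 0.73 (SD, n = 2) of the members' PTBP1 peaks and 19.3% ± 4.34 (SD, n = 2) of their IGF2BP2 peaks, a difference of -11.4 percentage points. Coding sequence held 16.6% ± 2.06 (SD, n = 2) and 11.6% ± 0.49 (SD, n = 2), and introns 72.2% ± 0.10 (SD, n = 2) and 63.1% ± 2.69 (SD, n = 2). In all 3 regions the libraries of the proteins did not overlap. A two-sided exact permutation test of each region returned p = 0.33, which is as low as a design of this size can go, and 0.33 after adjustment over the 3 regions. Over all peaks of the lists, 3′ UTRs held 3.14 and 3.29% for PTBP1 and 6.61 and 6.80% for IGF2BP2. Coding sequence held 13.3 and 13.5% against 9.18 and 9.25%, so the gap in the members' coding share was near that of the whole lists. Introns held 74.0 and 73.6% against 74.6 and 74.3%. Without HMGB1 the members' difference was -18.2 points in 3′ UTRs and 10.9 in coding sequence. HMGA1 held 9 of the members' 13 and 9 of their 15 IGF2BP2 3′ UTR peaks, so the 3′ UTR share rests largely on this gene. Leaving out HMGA1 was not tried.

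Related genes were described by the same density test, and their counts are to be read against the 25% of all genes that passed it. Of 8 other high mobility group genes, 6 could be tested and none passed (median log2 difference 0.64, against -0.01 over all genes). At an unadjusted limma p under 0.05, 3 of the 6 passed, against 40% of all genes. Of 24 other HMG-box genes, 20 were tested, 2 passed as higher in PTBP1 and 3 as higher in IGF2BP2 (median -0.22), which is the share of all genes. TCF7L2, a Wnt effector, was at 0.31 (limma adjusted p = 0.0441), and SOX9, a glial and cartilage transcription factor, at -0.84 (limma adjusted p = 0.0189). Of 15 linker histones and nucleosome partners, 13 were tested, 0 passed as higher in PTBP1 and 4 as higher in IGF2BP2 (median -0.63). Those 4 were the histone chaperones NPM1 (-1.46), ANP32B (-1.20), NAP1L4 (-0.77) and the related ANP32A (-0.72). Of 10 HMGB1 receptors and partners, 4 were tested and none passed (0 with an unadjusted limma p under 0.05; median -0.51). Of 14 genes of the let-7 and LIN28 axis, 11 were tested, 1 passed as higher in PTBP1 (IGF1R, 0.39) and 2 as higher in IGF2BP2 (CDC25A at -1.45 and IGF2BP1 at -0.56), with a median of 0.21.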

How the data were processed

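Peak lists of 4 IP libraries were used. The submitters' processing notes name HISAT2 and hg38; for the peak caller and the annotation, nothing is given in the sources used here. The authors deposited a −log10 p per peak (limit 400) and a log2 value, in a column headed as a count. From the values, this log2 is that of IP over input reads plus a constant per chromosome, which no source states. Reads were recovered where both columns fitted whole numbers (log2 of at least 0.1, p within 1%), and chromosomes were set to the median constant, choices made after seeing the data. The deposited overlap length was not used. Members and gene lists were chosen with earlier results of these data known. All 7 members are named, with the best reproducible region of each. Density was log2((peaks + 0.5)/(list peaks + 1) × 10000) for genes with at least 10 peaks, fitted with limma 3.58.1 (R 4.3.3, trend). Code was tested on simulated data. Intervals are Wilson at 95%. Other pseudocounts, filters, scalings, peak sets, overlaps, a replicate block and leaving out libraries were tried. Depth per library is unknown.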

Additional observations from a re-analysis of the deposited data

Results flagged for a closer look

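In 4 cases the log2 of IP over input (common scale, median over a member's peaks in a region) lay on opposite sides of 0 in the libraries of the 2 proteins. These differences were not tested, and the share of all genes with such opposite medians was not computed. Since the members were chosen with peak values known, the 4 cases are a description and no trait of the family. In the HMGA1 3′ UTR the medians were -1.65 and -1.49 for PTBP1 replicates 1 and 2, and 2.94 and 3.49 for IGF2BP2. In the HMGA1 coding sequence, with 1 or 2 peaks per library, they were -0.62 and -0.65 for PTBP1, and 2.63 and 3.57 for IGF2BP2. The deposited log2 of these PTBP1 peaks was 0.23 in replicate 1 and 0.90 and -0.48 in replicate 2. On chromosome 6 it stood 0.86 above the common scale, so the sign for PTBP1 in this case depends on the scale. In the HMGB2 coding sequence they were 2.65 and 2.39 for PTBP1, and -1.66 and -1.75 for IGF2BP2. In the HMGB3 coding sequence they were 3.84 and 4.25 for PTBP1, and -1.81 and -1.71 for IGF2BP2, where each IGF2BP2 library had 1 peak.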

How the results depend on the processing

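The count of members passing the density test, 0 in the reported fit, was 1 with a pseudocount of 2, 1 with a minimum of 40 peaks, 3 with nucleotides covered (HMGB2 at -1.89, HMGB3 at -1.63 and HMGA1 at -1.15), 2 with the best 25% of peaks (HMGB2 and HMGA1, which entered almost only through the lists of 1 protein, so that this supports nothing), 2 with the replicate block, and 1 without peaks mirrored on the other strand (an alternative added after seeing the data). Leaving out single libraries gave 0 to 2 members. HMGB3 was the member that passed most often, at -1.13 to -1.63 where it did. Of all genes, 3782 passed in the reported fit, 6574 with nucleotides covered, 4763 with the replicate block and 2267 to 6388 with a library left out, where the lone library is assumed to vary like the others. The replicate block called HMGB3 (limma adjusted p = 0.0185) and HMGA2 (0.00977). The labels do not say that a number marks a shared culture, and same-numbered libraries did not deviate together (r = -0.00157 over 15145 genes). Signs changed for HMGB1 with nucleotides covered (-0.065), HMGB2 with the best 25% (2.68), HMGN2 with the best 25% (0.67), and HMGN1 with a pseudocount of 2 (-0.10), with nucleotides covered (-0.53), and, over fits with 1 library left out, from -0.21 (without IGF2BP2 replicate 2) through -0.05 (without PTBP1 replicate 1) to 0.35. Of 81 alternative values for single members, 62 kept direction and side of the threshold. The intron share difference was 9.10 points and turned to -12.3 with the best 25% of peaks. Leaving out libraries moved it from 7.20 to 11.0, that of 3′ UTRs from -14.5 to -8.36 and that of coding sequence from 3.53 to 6.44. Without HMGB1 the 3′ UTR and coding differences (-11.4 and 4.98) were -18.2 and 10.9, and with the best 25% of peaks -31.6 and 39.5. The best 25% were picked by −log10 p, which was known when the members were chosen. HMGA1 and HMGB2 entered that set almost only through the lists of 1 protein, so its region shares support nothing. Leaving out HMGA1, which held most IGF2BP2 3′ UTR peaks of the members, was not tried. At the stricter bar (log2 4, −log10 p 5), enriched member peaks numbered 6 and 8 for PTBP1 and 1 and 3 for IGF2BP2, and the IGF2BP2 replicate 1 share (1.25%) fell below that of all peaks (1.62%). Reproducible regions numbered 42 to 47 for PTBP1 and 33 to 38 for IGF2BP2 over the overlap rules. Causes were not tested. Low depth limits HMGB1 introns and HMGA2, whose peaks mostly rest on 3 to 5 reads.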

Other observations

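Only 1 pseudogene named after a member had peaks, HMGN2P46, with 7, 8, 2 and 3 peaks in PTBP1 replicates 1 and 2 and IGF2BP2 replicates 1 and 2. Of these, 0, 0, 2 and 2 were enriched. Sharing of reads with other member copies was not tested.

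The genes whose 4 log2 densities lay nearest to those of HMGB1, by Euclidean distance over the 4 libraries, were TMEM241 (0.14), ADAM10 (0.15) and DPYD (0.16). For HMGA2 they were VTA1 (0.40), MAP2 (0.41) and NSG1 (0.45), each with 1 peak in IGF2BP2 replicate 2 and 9 or 10 in replicate 1.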
